A study of Mus musculus with 6 samples.

Results

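ATP-binding cassette (ABC) and solute carrier transporters of the SLCO and SLC22 families were examined in mouse liver. The genes were chosen by symbol alone, as every gene of the count tables with a symbol of Abca to Abcg and a number, Slco and a number or Slc22a and a number, apart from 2 matching genes that are not described here. ABC genes with other symbols, such as Tap1, Tap2 and Cftr, fall outside this rule. The choice gave 88 of 24411 genes, of which 49 belong to the ABC family, 14 to SLCO and 25 to SLC22. Gene expression had been measured by bulk RNA sequencing of frozen livers, in 3 libraries of the Control genotype and 3 of the Cyr61 KO genotype. Mice of both genotypes were male, 24 weeks old and of the strain given as Cyr61fl/fl (floxed Cyr61 alleles), and all had eaten for 12 weeks a diet that models NASH, non-alcoholic steatohepatitis. Cyr61, also called Ccn1, encodes a secreted matricellular protein. The labels do not give the driver or the cell type in which Cyr61 was removed, and whether the libraries of a group are separate mice is not stated there, so the p-values rest on a spread between libraries that may be technical.

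Hepatocytes take up bile acids, drugs and hormone conjugates from sinusoidal blood mainly through solute carriers, the SLCO organic anion carriers and the SLC22 organic cation, anion and carnitine carriers among them. ABC proteins use ATP to move substrates against a gradient: at the canalicular membrane they secrete phospholipid, sterol, conjugated bilirubin and drugs into bile, and at the basolateral membrane they return conjugates to blood. Other ABC proteins work inside the cell, in mitochondria, peroxisomes and lysosomes, and the ABCE and ABCF proteins act in translation and do not transport. For the comparison of uptake with export, the 39 SLCO and SLC22 genes were set as uptake, although some members carry solutes both ways or have no settled substrate. The 16 genes of canalicular export, basolateral export and sterol efflux were set as export, and the other 33 ABC genes stood in neither.

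Gene counts per library ran from 21032878 to 40377742, and levels are given as CPM, the counts of a gene relative to the TMM-adjusted size of its library. Values of a group are given in the order of replicates 1, 2 and 3. Cyr61 itself was at 15.6, 32.4 and 27.8 CPM in control and at 3.77, 2.66 and 3.14 CPM in Cyr61 KO. Every Cyr61 KO library was below every control, as the genotype labels say. Control replicate 2 differed from the rest: 50.9% of its reads lay in genes, where the other libraries had 82.8% to 87.6%, and it had the gut and gallbladder epithelial gene Dmbt1 at 1151 CPM. Its summed level of 8 hepatocyte markers was 39989 CPM, while the other controls had 92405 and 99878 CPM and the Cyr61 KO libraries 102890 to 128282 CPM. The groups did not overlap in that sum, and 0 of the 8 markers passed edgeR's test. Alb made up most of it, at 23799 to 66677 CPM in control and 77118 to 90103 CPM in Cyr61 KO. Alb, Ttr and Hnf4a had no overlap between groups. The groups overlapped for Apoa1, Cps1, Asgr1, F2 and Serpina1a, whose log2 fold changes ran from 0.0048 for Asgr1 to 0.73 for Cps1. Summed macrophage markers (7 genes) were at 573 to 964 CPM in control and 131 to 394 CPM in Cyr61 KO, with 3 markers lower, Trem2, Gpnmb and Lyz2. Lyz2 made up most of the control sum, at 344 to 588 CPM in control and 53.2 to 180 CPM in Cyr61 KO. The groups overlapped for Adgre1, Cd68, Csf1r and Itgam, none of them called. Summed Kupffer cell markers (5 genes) overlapped, at 380 to 521 CPM in control and 180 to 523 CPM in Cyr61 KO, with 0 called. Summed cholangiocyte markers (9 genes) were at 264 to 1535 CPM and 108 to 191 CPM, with 1 lower. Spp1 made up most of the cholangiocyte sum, at 193 to 1113 CPM and 61.9 to 126 CPM. Stellate cell markers (7 genes) were at 504 to 820 CPM and 219 to 409 CPM, with 2 lower, Col1a1 and Des. Pdgfrb and Dcn lay below the controls without a call. Lrat, Reln and Rgs5 had overlapping groups and log2 fold changes of 0.09, 0.05 and -0.05. Sinusoidal endothelial markers (6 genes) were at 101 to 160 CPM and 154 to 213 CPM, with 2 higher. Of 5 kidney tubule markers, 3 were at 0 in every library. The part of these cell types in the transporter differences was not tested, and in bulk tissue fewer cells of a type and less RNA per cell cannot be told apart.

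Of the 88 genes, 58 had enough counts to be tested, and 4 of them rose in Cyr61 KO: Abca8a, Abca2, Slco2a1 and Abcb10. By edgeR's quasi-likelihood test with Benjamini-Hochberg adjustment, 1.07% of the 13563 genes tested were called higher and 2.37% lower, 3.44% in either direction, at an adjusted p below 0.05. None of the 58 transporter genes was called lower by edgeR. At an unadjusted p below 0.05, 16 were higher and 6 lower, against 11.3% and 16.1% of all genes, and DESeq2 called 11 higher and 3 lower, against 5.86% and 9.8% of the genes to which it gave an adjusted p. All 3 Cyr61 KO libraries lay above all 3 controls for 20 of the 58 genes and below them for 3, against 17.3% and 17.9% of all tested genes. The fitted log2 fold change was above 0 for 39 genes, against 48.4% of all genes, and its median was 0.32 over the 58 genes and -0.03 over all genes. A median does not test a list, and none of these counts was given a p-value.

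**Figure D1:**
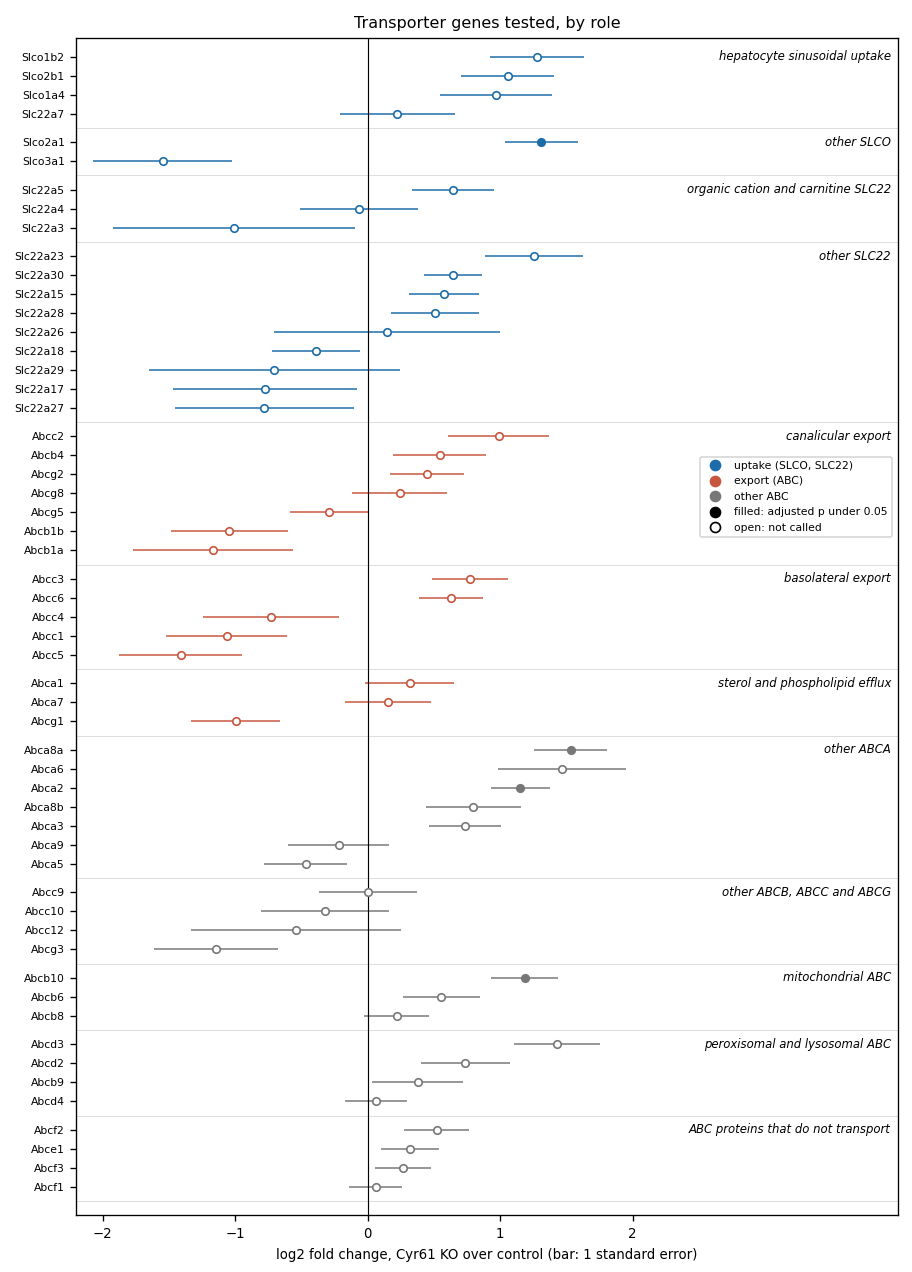
Log2 fold change of Cyr61 KO over control (x axis) for 55 of the 58 tested transporter genes, grouped by role, with bars of 1 standard error, blue for uptake, red for export and grey for other ABC genes. The 4 filled points, Slco2a1, Abca8a, Abca2 and Abcb10, passed the test, and the values run from -1.55 for Slco3a1 to 1.53 for Abca8a.

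Abca8a, a member of the ABCA6-like group of lipid transporters whose substrates are not settled, had the smallest p of the 58. It was at 42.6, 20.6 and 32.5 CPM in control and at 88.3, 95.1 and 93.1 CPM in Cyr61 KO. The Cyr61 KO libraries lay close together and all above the highest control. Means were 31.9 ± 11.0 and 92.2 ± 3.45 CPM (SD, n = 3), and the log2 fold change was 1.53 ± 0.27 (SE) with an edgeR adjusted p of 0.03. Abca2, an endosomal and lysosomal lipid transporter best known from oligodendrocytes, was at 46.0, 29.6 and 40.7 CPM in control and at 80.3, 85.9 and 92.3 CPM in Cyr61 KO. Its groups did not overlap, and its mean was 2.22-fold higher, a log2 fold change of 1.15 ± 0.22 with an edgeR adjusted p of 0.0361.

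Slco2a1, the prostaglandin transporter, was at 29.3, 15.6 and 25.8 CPM in control and at 50.4, 71.4 and 53.7 CPM in Cyr61 KO. Every Cyr61 KO library was above every control, with replicate 2 the highest of its group. The log2 fold change was 1.31 ± 0.27 with an edgeR adjusted p of 0.0428. The sinusoidal endothelial markers Kdr, at 16.2 to 19.2 CPM in control and 32.6 to 46.1 CPM in Cyr61 KO, and Clec4g, at 23.2 to 29.3 and 43.1 to 55.6 CPM, were also called higher. Of the 4 other endothelial markers Stab2 and Oit3 had log2 fold changes of 0.48 and 0.61 and Pecam1 and Lyve1 of -0.17 and -0.55, none of them called and all with overlapping groups. The part of endothelium in the Slco2a1 difference was not tested. Abcb10, a mitochondrial inner membrane transporter needed for haem synthesis in red cell precursors, was at 27.3, 15.6 and 26.5 CPM in control and at 56.6, 56.0 and 45.1 CPM in Cyr61 KO. The groups did not overlap for Abcb10 either, and its log2 fold change was 1.18 ± 0.26 with an edgeR adjusted p of 0.0445.

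Control replicate 2 was the lowest library for all 4 genes. Without it the 4 genes were still called by edgeR, with log2 fold changes of 1.32 for Abca8a, 1.02 for Abca2, 1.11 for Slco2a1 and 0.99 for Abcb10 and adjusted p of 0.0303, 0.0388, 0.0494 and 0.0468. None of the 4 was called without Cyr61 KO replicate 1 (adjusted p of 0.0903 to 0.105) or without Cyr61 KO replicate 2 (0.12 to 0.182), and Abca8a was the only one of them called without control replicate 1. With library totals in place of TMM scaling, none of the 4 was called, at adjusted p of 0.0558 to 0.0734. Over all genes, edgeR called 4 higher and 3 lower without Cyr61 KO replicate 1, and 12 and 12 without Cyr61 KO replicate 2. Without control replicate 1 it called 43 and 131, and with library totals 27 and 23, against 145 and 322 as reported. Over the 13 other settings the adjusted p ran from 3.22e-05 to 0.12 for Abca8a, from 0.000279 to 0.151 for Abca2, from 0.000719 to 0.182 for Slco2a1 and from 0.0016 to 0.182 for Abcb10.

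**Figure D2:**
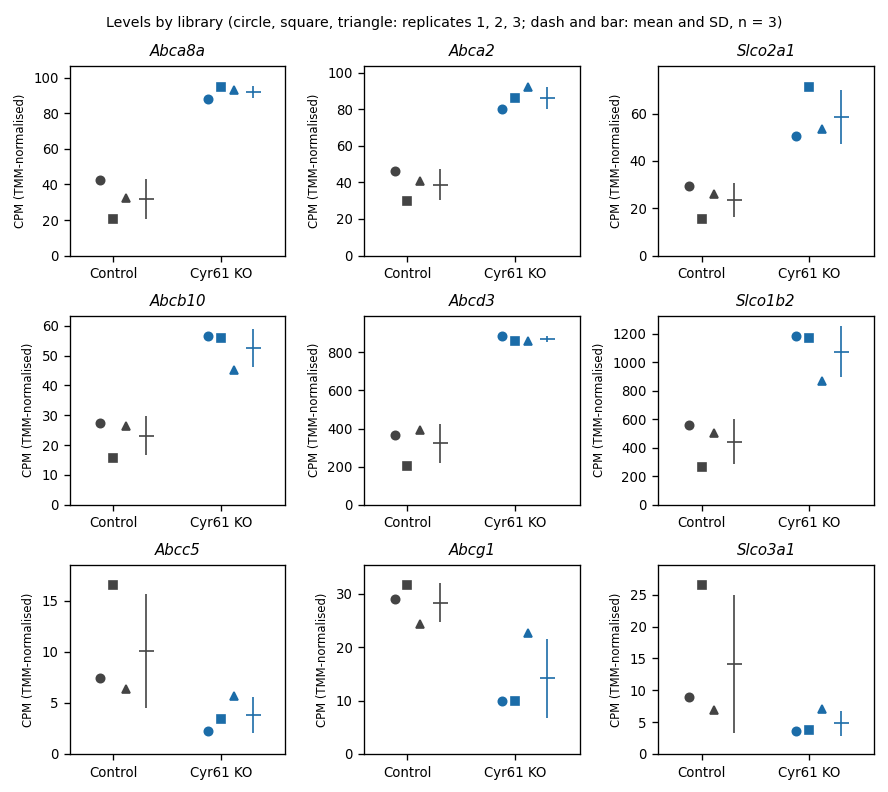
TMM-normalised CPM (y axis, from 0) of 9 transporter genes in each control and Cyr61 KO library, with circles, squares and triangles for replicates 1, 2 and 3 and the mean with SD beside them. The upper 6 genes have every Cyr61 KO library above every control and control replicate 2 lowest, and in the lower row Slco3a1 rests on 1 high control, replicate 2 at 26.5 CPM.

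The sequences before the starts of these 4 genes are printed with that of Slco1b2, the carrier with the highest CPM. They are the 250 bases upstream of the RefSeq start on GRCm38.p6, read 5′ to 3′ on the gene's own strand, with matches to 6 short motifs in capitals. The windows are chr11:110095938-110096187 on the minus strand for Abca8a, chr2:25428349-25428598 on the plus strand for Abca2, chr9:103008237-103008486 on the plus strand for Slco2a1, chr8:123983123-123983372 on the minus strand for Abcb10 and chr6:141629268-141629517 on the plus strand for Slco1b2. The Slco2a1 window lies inside the longer gene of the GENCODE annotation (chr9:102988712-103096002), and that of Abca8a reaches into the end of its gene (chr11:110025634-110095978).
Abca8a: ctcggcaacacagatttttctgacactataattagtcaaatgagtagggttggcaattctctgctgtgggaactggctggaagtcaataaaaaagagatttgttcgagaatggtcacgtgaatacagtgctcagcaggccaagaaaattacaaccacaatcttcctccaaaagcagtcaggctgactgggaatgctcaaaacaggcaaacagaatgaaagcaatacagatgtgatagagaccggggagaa
Abca2: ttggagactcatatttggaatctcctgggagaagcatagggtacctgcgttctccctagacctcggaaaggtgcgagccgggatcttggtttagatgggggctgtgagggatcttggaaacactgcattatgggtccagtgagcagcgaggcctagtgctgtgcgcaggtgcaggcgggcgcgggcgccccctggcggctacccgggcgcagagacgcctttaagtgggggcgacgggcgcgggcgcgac
Slco2a1: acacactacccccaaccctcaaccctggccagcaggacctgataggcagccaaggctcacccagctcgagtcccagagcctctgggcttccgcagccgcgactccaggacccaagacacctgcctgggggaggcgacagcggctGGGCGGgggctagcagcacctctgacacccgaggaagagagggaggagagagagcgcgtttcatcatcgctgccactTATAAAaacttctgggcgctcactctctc
Abcb10: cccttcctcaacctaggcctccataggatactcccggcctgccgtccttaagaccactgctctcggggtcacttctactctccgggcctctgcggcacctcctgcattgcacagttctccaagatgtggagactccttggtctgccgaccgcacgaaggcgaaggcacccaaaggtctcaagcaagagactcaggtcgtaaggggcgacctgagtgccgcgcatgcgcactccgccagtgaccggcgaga
Slco1b2: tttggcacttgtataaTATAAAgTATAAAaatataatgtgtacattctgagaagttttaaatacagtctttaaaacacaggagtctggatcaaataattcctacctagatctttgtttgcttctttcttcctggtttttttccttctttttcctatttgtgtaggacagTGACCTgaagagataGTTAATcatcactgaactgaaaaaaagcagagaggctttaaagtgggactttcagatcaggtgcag

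The motifs searched on both strands were AGGTCA (a nuclear receptor half-site), GTTAAT (an HNF1 half-site), TGTTTAC (a FOXA core), GGGCGG (a GC box), CCAAT and TATAAA. The windows of Abca8a, Abca2 and Abcb10, at 43.2%, 63.2% and 61.6% GC, held 0 matches. The Slco2a1 window held 1 GC box and 1 TATAAA, and its GC content was 63.2%. The Slco1b2 window, at 33.6% GC, held 1 AGGTCA (read as TGACCT on this strand), 1 GTTAAT and 2 TATAAA. Among 27025 promoter windows of the same length, AGGTCA occurred in 13.8%, GTTAAT in 6.52%, TGTTTAC in 3.09%, GGGCGG in 32.9%, CCAAT in 34.5% and TATAAA in 13.0%. Among the 45 tested transporter genes with a window, the shares were 13.3%, 4.44%, 2.22%, 46.7%, 24.4% and 13.3% in the same order. A match is a run of letters and not a measured binding site.

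The 5 tested genes of hepatocyte sinusoidal uptake all had a log2 fold change above 0. The share above 0 was 48.4% over all tested genes and 64.5% over those with a mean of at least 20 CPM. The median of the 5 genes was 0.97, and none passed edgeR's test. At an unadjusted p below 0.05, 3 of them were higher, and DESeq2 called Slco1b2 and Slco2b1 higher. Slco1b2, the mouse counterpart of the human liver OATP1B carriers of bile acids, bilirubin conjugates and statins, was at 559.8, 267 and 504 CPM in control and at 1186, 1172 and 868 CPM in Cyr61 KO. All 3 Cyr61 KO libraries were above the controls, and control replicate 2 was again the lowest. Its mean was 2.42-fold higher, a log2 fold change of 1.28 ± 0.36 with an edgeR adjusted p of 0.0772 and a DESeq2 adjusted p of 0.00176, the lowest of a range that reached 0.275 over the 13 other settings. Slco2b1, a carrier of steroid sulphates, was at 107, 50.6 and 117 CPM in control and at 173, 244 and 155 CPM in Cyr61 KO. Its groups did not overlap, and its log2 fold change was 1.06 ± 0.35 with an edgeR adjusted p of 0.106.

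Slco1a4 was at 14.4, 11.6 and 7.36 CPM in control and at 21.1, 34.1 and 10.1 CPM in Cyr61 KO, with overlapping groups and an adjusted p of 0.18. Slc22a7 (OAT2), an organic anion carrier, was at 28.7, 15.2 and 28.1 CPM in control and at 44.2, 27.6 and 12.2 CPM in Cyr61 KO. Its lowest library was a Cyr61 KO one, and its log2 fold change was 0.22 ± 0.43.

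Slco2a1 and Slco3a1 were the only tested SLCO genes outside that list, and they lay at the ends of the uptake range. Slco3a1, another organic anion carrier, was at 8.88, 26.5 and 6.96 CPM in control and at 3.59, 3.72 and 7.12 CPM in Cyr61 KO. Control replicate 2 was far above the other controls, and control replicate 3 was below Cyr61 KO replicate 3. Its log2 fold change was -1.55 ± 0.52 with an edgeR adjusted p of 0.111. Leaving out control replicate 2 gave -0.69 with an adjusted p of 0.278, and over the 13 other settings the adjusted p ran from 0.0236 to 0.329.

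Among the organic cation and carnitine carriers 3 of 6 were tested and 0 passed, with 0 at an unadjusted p below 0.05 and 0 by DESeq2. Slc22a5 (OCTN2), the high-affinity carnitine carrier, was at 21.0, 11.8 and 19.9 CPM in control and at 20.4, 23.3 and 38.6 CPM in Cyr61 KO, with overlapping groups and a log2 fold change of 0.64 ± 0.31. Slc22a4 (OCTN1), the ergothioneine carrier, was at 1.35 to 3.27 CPM in control and 1.65 to 2.27 CPM in Cyr61 KO. Slc22a3 (OCT3) was at 0.371 to 0.786 CPM in control and 0.0297 to 0.645 CPM in Cyr61 KO, and a difference between the groups was not detectable at that depth.

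The other SLC22 genes gave 9 tested of 17 and 0 calls by edgeR, with 2 higher at an unadjusted p below 0.05 and 1, Slc22a23, higher by DESeq2. Slc22a23, an orphan carrier, was at 58.8, 22.5 and 62.2 CPM in control and at 92.1, 128 and 122 CPM in Cyr61 KO. The groups did not overlap, and the log2 fold change was 1.25 ± 0.37 with an edgeR adjusted p of 0.0853. Slc22a30 was at 71.9, 55.7 and 50.8 CPM in control and at 87.3, 105 and 86.0 CPM in Cyr61 KO, also without overlap, with a log2 fold change of 0.64 ± 0.22 and an adjusted p of 0.112. Slc22a18, an imprinted gene, was at 188, 117 and 256 CPM in control and at 184, 126 and 117 CPM in Cyr61 KO. It was the only uptake gene with a mean of at least 20 CPM and a log2 fold change below 0, at -0.39 ± 0.33. The other 6, named here to complete the list, were Slc22a15, Slc22a28, Slc22a26, Slc22a27, Slc22a29 and Slc22a17. Their log2 fold changes ran from -0.78 to 0.58, and Slc22a15 and Slc22a28 had no overlap.

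The 15 tested export genes lay on both sides of 0: 8 had a log2 fold change above 0 and 7 below, with a median of 0.16, and 0 passed edgeR's test. At an unadjusted p below 0.05, 3 were higher and 4 lower, and DESeq2 called Abcc2 and Abcc3 higher and Abcc5 and Abcg1 lower. In the canalicular membrane, Abcb4, which moves phosphatidylcholine into bile, was at 428, 191 and 356 CPM in control and at 412, 422 and 586 CPM in Cyr61 KO. Control replicate 1 was above Cyr61 KO replicates 1 and 2, and the log2 fold change was 0.54 ± 0.35. Abcc2 (MRP2), which secretes bilirubin glucuronides, was at 213, 86.6 and 152 CPM in control and at 197, 332 and 366 CPM in Cyr61 KO. Control replicate 1 was above Cyr61 KO replicate 1, and the log2 fold change was 0.99 ± 0.38 with an edgeR adjusted p of 0.141. Abcg2 (BCRP), an exporter of drugs and urate, was at 109, 59.2 and 109 CPM in control and at 127, 111 and 140.2 CPM in Cyr61 KO. Its groups did not overlap, and its log2 fold change was 0.45 ± 0.28.

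Abcg5 and Abcg8 form a heterodimer that secretes cholesterol and plant sterols into bile, and they lie side by side on opposite strands. Abcg8 was at 186, 80.5 and 149 CPM in control and at 189, 194 and 109.5 CPM in Cyr61 KO. Abcg5 was at 184, 140.4 and 172 CPM in control and at 179, 136 and 90.1 CPM in Cyr61 KO. Both genes had overlapping groups, with log2 fold changes of 0.24 ± 0.36 and -0.29 ± 0.29. The ratio of Abcg5 to Abcg8 in CPM was 0.987, 1.74 and 1.15 in control and 0.947, 0.703 and 0.822 in Cyr61 KO, so the ratios did not overlap between groups although the level of each gene did. The ratio was formed after the values were seen and was not tested. Ratios of other neighbouring pairs are given below, and that of Abcb1a to Abcb1b overlapped between groups. The 109 bases between the starts, chr17:84683012-84683120 on the plus strand, are shown because they separate the start of Abcg5 from a RefSeq start of Abcg8. The Abcg8 gene of the GENCODE annotation (chr17:84676302-84700333) begins earlier, inside Abcg5, and the 2 genes overlap in exons on opposite strands. The interval held 1 of the 6 motifs, TATAAA on the opposite strand, in capitals.
Abcg5-Abcg8: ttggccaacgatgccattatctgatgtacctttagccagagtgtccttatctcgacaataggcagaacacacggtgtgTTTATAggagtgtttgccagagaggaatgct

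The multidrug exporters Abcb1a and Abcb1b were low. Abcb1b was at 3.43, 4.10 and 2.78 CPM in control and at 1.40, 0.993 and 2.58 CPM in Cyr61 KO, all below the lowest control, with a log2 fold change of -1.05 ± 0.44 and an edgeR adjusted p of 0.169. Abcb1a was at 3.19 to 12.2 CPM in control and 1.13 to 4.82 CPM in Cyr61 KO. These are close paralogs, and reads that map to both are not counted, so their levels are uncertain. The same holds for Abca8a with Abca8b, for the Slco1a genes and for Slc22a26 to Slc22a30.

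Basolateral exporters split by level. Abcc3 (MRP3), which returns glucuronides and bile acids to blood, was at 132, 85.2 and 107 CPM in control and at 149, 159 and 246 CPM in Cyr61 KO. Abcc6, a hepatic gene whose loss causes ectopic calcification in pseudoxanthoma elasticum, was at 138, 132 and 112 CPM in control and at 226, 208 and 158 CPM in Cyr61 KO. Neither gene had overlapping groups, and their log2 fold changes were 0.77 ± 0.29 and 0.63 ± 0.24, with edgeR adjusted p of 0.133 and 0.14. Abcc5 (MRP5), an exporter of cyclic nucleotides, was at 7.44, 16.5 and 6.31 CPM in control and at 2.26, 3.41 and 5.69 CPM in Cyr61 KO. All Cyr61 KO libraries were below the controls, and the log2 fold change was -1.41 ± 0.47 with an edgeR adjusted p of 0.105. Leaving out control replicate 2 gave -0.84 with an adjusted p of 0.242, in a range of 0.0252 to 0.313 over the 13 other settings. Abcc1 and Abcc4, under 10 CPM in every library, had overlapping groups and log2 fold changes of -1.06 ± 0.46 and -0.73 ± 0.51.

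Of the sterol and phospholipid efflux genes, Abca1, which loads cholesterol onto apolipoprotein A-I, was at 215, 95.7 and 161 CPM in control and at 143, 223 and 221 CPM in Cyr61 KO, with overlapping groups. Abcg1, which exports cholesterol to high-density lipoprotein and is prominent in macrophages, was at 29.0, 31.6 and 24.4 CPM in control and at 9.98, 9.83 and 22.7 CPM in Cyr61 KO. Cyr61 KO replicate 3 was close to control replicate 3, and no library overlapped. The log2 fold change was -0.998 ± 0.34 with an edgeR adjusted p of 0.11, and leaving out Cyr61 KO replicate 3 gave -1.50 with an adjusted p of 0.0182, the low end of a range that reached 0.347 over the 13 other settings. Cyr61 KO replicate 3 also had the highest summed macrophage markers of its group, at 394 CPM against 131 and 182 CPM, and the part of macrophages in the Abcg1 difference was not tested. Abca7 was at 6.19 to 14.0 CPM in control and 9.05 to 12.2 CPM in Cyr61 KO.

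Uptake and export were then set side by side. Of the 19 tested uptake genes 1 was called higher and 0 lower, 12 had a log2 fold change above 0, and 7 had every Cyr61 KO library above every control while 0 had every one below. At an unadjusted p below 0.05, 6 uptake genes were higher and 1 lower, and DESeq2 called Slco3a1 lower. Of the 15 tested export genes, 3 lay wholly above the controls and 3 wholly below. Over all tested genes the shares were 17.3% and 17.9%, and the export counts were near them. The median log2 fold change was 0.51 for uptake and 0.16 for export, against -0.03 for all genes. The difference between these medians was not tested, and it depends on which genes pass the count filter: with no filter the uptake median over 30 genes was -0.19.

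Levels between genes were compared per kilobase of exon. Summed over all genes of a side, uptake was at 532, 285 and 642 CPM per kb in control and at 946, 749 and 596 CPM per kb in Cyr61 KO. Export was at 278, 171 and 233 CPM per kb in control and at 282, 289 and 285 CPM per kb in Cyr61 KO. The uptake sums overlapped, since control replicate 3 was above Cyr61 KO replicate 3, and the export sums did not, although control replicate 1 came within a few units of the Cyr61 KO libraries. Within a library, uptake exceeded export 1.91, 1.67 and 2.75 times in control and 3.35, 2.59 and 2.09 times in Cyr61 KO, so the ratios overlapped too. The sums rest on a few highly expressed uptake genes and do not describe most members of that side. Without the 2 uptake genes of highest mean per kb, the uptake sum was below the export sum in every library. Among the uptake genes, Slco1b2 had a mean over the 6 libraries of 154 CPM per kb and Slc22a18 of 96.9. Of the export genes, Abcg5 had the highest mean over the 6 libraries, at 55.3 CPM per kb, before Abcb4 at 42.5 and Abcg8 at 40.4, and the order was not the same in every library: Abcg8 was first in Cyr61 KO replicate 2 and Abcb4 in Cyr61 KO replicate 3.

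**Figure D3:**
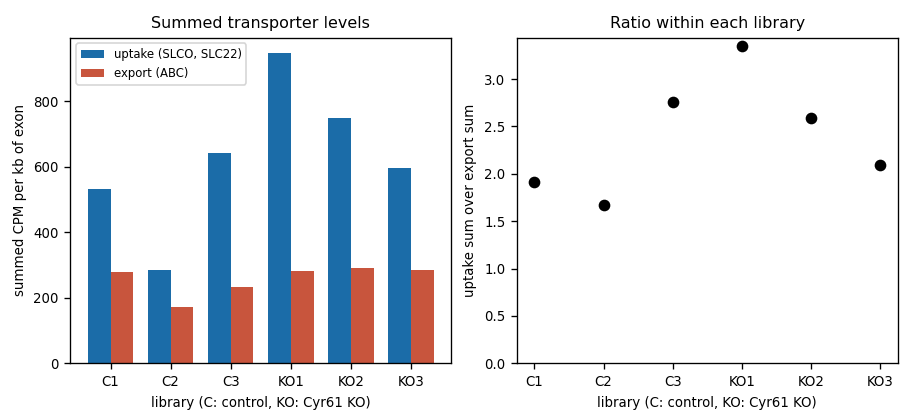
Left, summed CPM per kb of exon (y axis, from 0) of the uptake genes (blue) and the export genes (red) in each control (C1 to C3) and Cyr61 KO (KO1 to KO3) library. Right, the uptake sum over the export sum in each library (y axis, from 0): the ratios overlap between the groups, at 1.67 to 2.75 in control and 2.09 to 3.35 in Cyr61 KO.

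In the mitochondrial list 4 of 4 ABC genes had a log2 fold change above 0, with a median of 0.47 and Abcb10 the 1 called. In the peroxisomal and lysosomal list 5 of 5 did, with a median of 0.65 and 0 called by edgeR. The share above 0 was 48.4% over all tested genes and 64.5% over those with a mean of at least 20 CPM. The 4 ABCE and ABCF genes were all above 0 too. Of the peroxisomal and lysosomal genes, 2 were higher at an unadjusted p below 0.05, and DESeq2 called 1, Abcd3. Abcd3 (PMP70), which carries branched-chain and bile acid precursor acyl groups into peroxisomes, was at 368, 204 and 395 CPM in control and at 887, 862 and 861 CPM in Cyr61 KO. The 3 Cyr61 KO libraries were nearly equal and above every control, with means of 322 ± 103 and 869.7 ± 14.7 CPM (SD, n = 3). The log2 fold change was 1.43 ± 0.32 with an edgeR adjusted p of 0.0503, just outside the threshold, and leaving out control replicate 2 gave 1.22 with an adjusted p of 0.0369, in a range of 7e-05 to 0.201 over the 13 other settings. Abcd2, a very long-chain fatty acid transporter of peroxisomes, was at 18.0, 7.74 and 21.4 CPM in control and at 23.5, 27.8 and 27.4 CPM in Cyr61 KO without overlap, and its log2 fold change was 0.74 ± 0.34.

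Among the other mitochondrial genes, Abcb6, a porphyrin transporter, was at 79.0, 40.7 and 85.2 CPM in control and at 110.3, 98.3 and 92.2 CPM in Cyr61 KO. Its groups did not overlap, with a log2 fold change of 0.55 ± 0.29 and an edgeR adjusted p of 0.246. Abcb8 had overlapping groups and a log2 fold change of 0.22 ± 0.25. In the peroxisomal and lysosomal list, the lysosomal peptide transporter Abcb9 was at 1.85 to 2.41 CPM in control and 2.61 to 2.98 CPM in Cyr61 KO. Abcd4, which serves the release of cobalamin from lysosomes, differed by 0.06 ± 0.23 on the log2 scale.

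Abca6, a neighbour of Abca8a, was at 98.2, 21.1 and 69.4 CPM in control and at 136, 207 and 178 CPM in Cyr61 KO. The controls were widely spread, no library overlapped, and the log2 fold change was 1.47 ± 0.48 with an edgeR adjusted p of 0.105. Abca3, which fills surfactant lamellar bodies in the lung, was at 70.3, 42.2 and 75.9 CPM in control and at 85.5, 116 and 112 CPM in Cyr61 KO, with an adjusted p of 0.13. Of the 4 tested genes in the remaining ABCB, ABCC and ABCG list, 0 passed edgeR's test and DESeq2 called 0. Abcg3, the 1 gene of them at an unadjusted p below 0.05, was at 6.99, 11.6 and 6.16 CPM in control and at 2.76, 1.95 and 6.45 CPM in Cyr61 KO, with a log2 fold change of -1.15 ± 0.47. Abcc9, the sulphonylurea receptor subunit of a potassium channel, had equal means of 24.4 CPM. Abcc10 and Abcc12 had overlapping groups. None of the 4 ABCE and ABCF genes was called by edgeR, with 0 at an unadjusted p below 0.05 and 0 by DESeq2. Abcf2, a translation factor, had no overlap and a log2 fold change of 0.52 ± 0.25, and Abce1, Abcf3 and Abcf1 lay between 0.06 and 0.32.

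The direction went with the level of the gene. Of the 35 transporter genes with a mean of at least 20 CPM, 32 had a log2 fold change above 0, against 64.5% of the 5889 genes at that level. The same 35 held the 4 calls, against 1.66% of genes at that level called higher, and 17 lay wholly above the controls, against 26.1%. Of the 23 genes under 20 CPM, 7 had a log2 fold change above 0, against 36.0% of genes at that level. The medians were 0.64 and -0.54 for the 2 classes, beside 0.18 and -0.26 for all genes. Both sides shared the pattern: uptake had medians of 0.68 (9 genes) and -0.38 (10 genes), and export of 0.45 (9 genes) and -1.06 (6 genes). Across the 58 genes the log2 fold change had a Pearson r of 0.633 and a Spearman rho of 0.624 with log level, and across all 13563 tested genes 0.382 and 0.394. These correlations are over genes that share libraries and normalisation and are given as a description, and the split at 20 CPM was set with the values known.

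**Figure D4:**
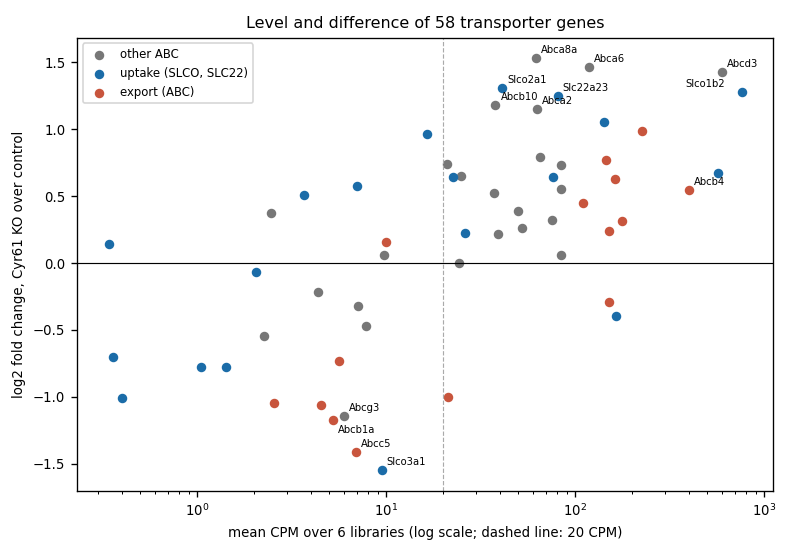
Log2 fold change of Cyr61 KO over control (y axis) against mean CPM over 6 libraries (x axis, log scale) for the 58 tested genes, blue for uptake, red for export and grey for other ABC genes. To the right of the dashed line at 20 CPM 32 of 35 points lie above 0, and to its left 7 of 23 do.

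Neighbouring genes differed in direction. The Abca8b, Abca8a, Abca9, Abca6 and Abca5 genes lie in 1 row on chromosome 11 (chr11:109932190-110337716, GRCm38), and their log2 fold changes in that order were 0.80, 1.53, -0.22, 1.47 and -0.47. Abca9 and Abca5 were under 11 CPM in every library, and the other 3 were above 20 CPM in every library. The ratio of Abca8a to Abca8b in CPM was 0.598, 0.743 and 0.744 in control and 1.46, 1.20 and 0.863 in Cyr61 KO, with no overlap and no test. On chromosome 5 (chr5:8660077-8959231), Abcb1a and Abcb1b had log2 fold changes of -1.17 and -1.05 and Abcb4, the third gene of the row, 0.54. The ratio of Abcb1a to Abcb1b overlapped, at 1.82, 2.98 and 1.14 in control and 0.809, 3.68 and 1.87 in Cyr61 KO. On chromosome 6, Slco1b2 and Slco1a4 had 1.28 and 0.97. On chromosome 19 a row of 8 SLC22 genes (chr19:7673061-8628299) had 5 tested members, whose log2 fold changes ran from -0.78 for Slc22a27 to 0.64 for Slc22a30.

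The other 30 genes did not pass the count filter. Their highest level in any library was 1.27 CPM, that of Slco4a1 in control replicate 2, and 13 had 0 counts in every library, which allows up to 3 counts or 0.0841 to 0.106 CPM in each. The 13 include Slc22a6 and Slc22a8, the main organic anion carriers of the kidney, in livers where 3 of 5 kidney markers were also at 0. Of the 30, 20 were uptake genes, 1 (Abcg4) an export gene and 9 other ABC genes. The untested uptake genes were 9 of 14 SLCO and 11 of 25 SLC22 genes, and 7 of 14 ABCA genes of the list that holds Abca8a were untested too.

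A list of 16 transport genes outside the symbol rule, 3 of them ABC genes (Tap1, Tap2 and Cftr), had 15 tested, of which 1 rose. Slc10a1 (NTCP), the sodium-dependent bile acid uptake carrier of the sinusoidal membrane, was at 130.0, 59.6 and 181 CPM in control and at 474, 908 and 407 CPM in Cyr61 KO. Its groups were far apart, with a log2 fold change of 2.27 ± 0.48 and an edgeR adjusted p of 0.0428. Of the 15, 8 lay wholly above the controls and 2 below, against 17.3% and 17.9% of all tested genes. Of 19 regulators and scaffold genes of transporters, 1 rose: Nr1i3 (CAR), the nuclear receptor that induces drug-handling genes, was at 15.7, 17.5 and 16.2 CPM in control and at 60.5, 51.5 and 38.1 CPM in Cyr61 KO. Its log2 fold change was 1.61 ± 0.22 with an edgeR adjusted p of 0.0176. Of the 19, 8 lay wholly above the controls and 1 below, against the same shares of all genes, with a median log2 fold change of 0.47.

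Beyond the 4 genes, DESeq2 called Abca6, Abcc2, Abcc3, Abcd3, Slc22a23, Slco1b2 and Slco2b1 higher and Abcc5, Abcg1 and Slco3a1 lower. Among the edgeR settings, Abcd3 was the 1 further gene called higher. Abcg1, Abcg3 and Slco3a1 were the genes called lower in them, Abcg1 and Abcg3 without Cyr61 KO replicate 3 and Slco3a1 without control replicate 3.

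**Figure D5:**
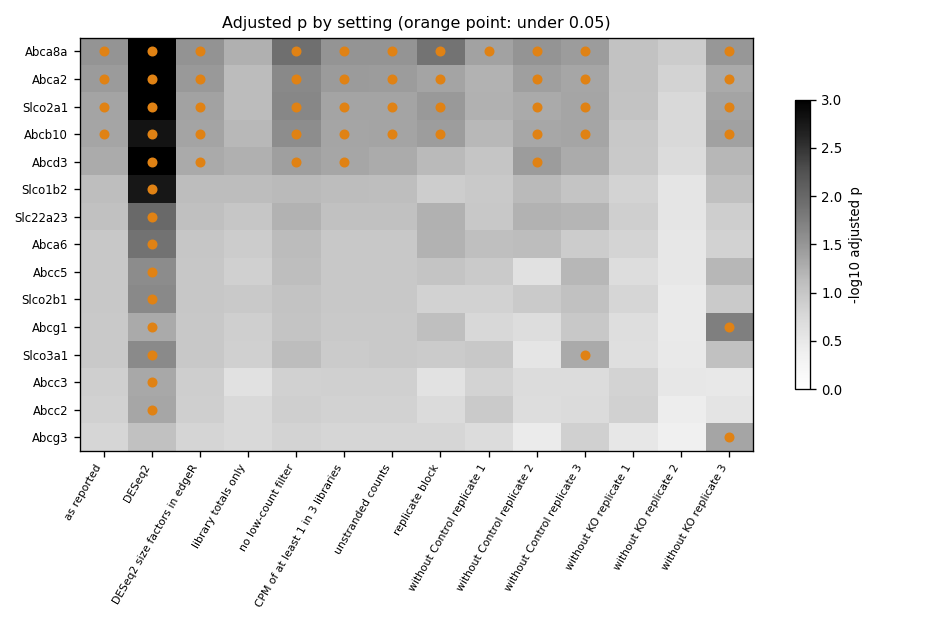
Adjusted p (shade, as -log10) of 15 transporter genes (rows) under the reported analysis and 13 other settings (columns), with an orange point where it is below 0.05. Abca8a has a point in 10 of the 13 other settings, Abca2, Slco2a1 and Abcb10 in 9, Abcd3 in 5 and Slco1b2 in 1, DESeq2.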

How the data were processed

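For each library the authors deposited read counts for 24411 gene symbols. The submitters' processing notes name Trimmomatic 0.38, STAR 2.6.1a and the builds hg38 and mm10. Annotation and mapping settings: not given in the sources used here. The reverse-strand counts were used, and the opposite strand held 0.928% to 1.35% of stranded counts. Reads not assigned to 1 gene, 12.4% to 49.1% per library, stayed out of library sizes and tests.

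All genes were fitted with edgeR 4.0.16 in R 4.3.3 (filterByExpr with a minimum count of 10 and minimum total of 15, TMM, quasi-likelihood F test, two-sided, group term only), with Benjamini-Hochberg adjustment over 13563 genes. The standard error was taken as the size of the log2 fold change divided by the root of its F. A two-sided exact permutation test of 3 against 3 cannot go below 0.1 and was not used. The test was run on simulated counts, with 200 genes changed in each of 3 simulations. It called 1.33% of 1.5-fold, 8.67% of 2-fold, 73.3% of 4-fold and 88.0% of 8-fold changes, so most 2-fold changes were missed. Those were 2, 13, 110 and 132 calls over the 3 simulations. It also made 28 false calls among 40089 unchanged genes, so some calls at this threshold can be false. DESeq2 1.42.0, 2 other scalings, 2 other filters, unstranded counts, a replicate block and leaving out each library were alternatives.

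The members, lists, rules and split were chosen with earlier results of these data known. Named genes were every called member, the 3 highest by CPM and 2 smallest by p in each role list, the called genes of the outside lists, and Cyr61, and 3 genes that the rule or its lists take are not reported here. Abcg5, Abcb1a, Abcc1, Abcc4, Abcb9, Abcd4, Abca5, Abca9, Slco1a4, Slc22a7 and the low SLC22 genes were added to complete lists. Positions are from GENCODE M21 on GRCm38, and promoter windows from RefSeq on GRCm38.p6, which matched 71 of the 88 genes. Counts differed by more than sampling noise in the 6 pairs of libraries within groups.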

Additional observations from a re-analysis of the deposited data

How the results depend on the processing

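Of the 58 tested genes, 46 kept the sign of their log2 fold change under every alternative run. With DESeq2, 11 transporter genes were called higher and 3 lower, and with library totals only 0 and 0, against 4 and 0. Over all genes DESeq2 called 846 higher and 1415 lower, and library totals 27 and 23, against 145 and 322. Library totals moved the median of all genes from -0.03 to -0.30 on the log2 scale. DESeq2's size factors and the other 2 filters gave 5 higher, and unstranded counts 4. Over all genes these settings called 139 to 278 higher and 301 to 666 lower. Leaving out 1 library gave 0 to 5 higher and 0 to 2 lower, while all genes gave 4 to 169 higher and 3 to 720 lower. The replicate block gave 4 higher and 0 lower, and 162 and 471 over all genes. Deviations of same-numbered libraries correlated at -0.06, -0.24 and -0.45, and those of libraries with different numbers at -0.19 to 0.36. Deviations from a mean of 3 libraries depend on each other, so these values do not settle whether the numbers pair the libraries.

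The uptake median was -0.18 with DESeq2 and -0.19 with no filter, both over 30 uptake genes in place of 19, 0.21 with library totals and 0.31 to 0.59 with 1 library left out. The export median was -0.20 with library totals and -0.055 to 0.13 with 1 library left out. Signs also reversed with library totals for Abca7 (-0.20), Abcb8 (-0.013), Abcc9 (-0.26), Abcd4 (-0.23), Abcf1 (-0.21), Slc22a26 (-0.059) and Slc22a7 (-0.045). The replicate block reversed Abcc9 (-0.14), Slc22a26 (-0.25) and Slc22a4 (0.022). Abcc9 was at -0.042 both with unstranded counts and with the filter of 1 CPM in 3 libraries. With 1 library left out, the log2 fold change ran from -0.055 to 0.59 for Abca7, -0.53 to 0.0096 for Abca9, -0.60 to 0.58 for Abcc10, -0.40 to 0.36 for Abcc9, -0.020 to 0.16 for Abcd4, -0.034 to 0.15 for Abcf1, -0.0087 to 0.55 for Abcg8, -1.14 to 0.53 for Slc22a17, -0.52 to 0.70 for Slc22a26, -0.26 to 0.42 for Slc22a4 and -0.27 to 0.59 for Slc22a7. The cause was not tested, except that the fit with no filter differs by its wider set of genes. With 3 libraries a group, no transporter difference under 2-fold passed the edgeR test as reported.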

Other observations

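Among the transport genes outside the symbol rule, and among the regulators, 3 further genes had groups that did not overlap and adjusted p just above the threshold. Slc51b, the beta subunit of the basolateral bile acid exporter OST, was at 2.25, 2.13 and 2.23 CPM in control and at 0.802, 0.497 and 0.505 CPM in Cyr61 KO, with a log2 fold change of -1.87 ± 0.44 and an edgeR adjusted p of 0.0526. Slc51a, the gene of the alpha subunit, was at 0.0344 CPM in control replicate 2, at 0 in every other library and not tested. Slc29a1, an equilibrative nucleoside carrier, was at 88.4, 73.6 and 83.2 CPM in control and at 201, 197 and 115 CPM in Cyr61 KO, with an adjusted p of 0.0642. Among the regulators, Ppara, the fatty acid receptor, was at 103, 54.0 and 114 CPM in control and at 178, 287 and 239 CPM in Cyr61 KO, with an adjusted p of 0.0595. These 3 genes were picked after their values were seen.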
